A study of Mus musculus with 8 samples.

Results

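Long-tailed poly(A) RNA was compared with total poly(A) RNA in mouse hippocampal neurons depleted of CNOT7. The comparison used 4 of the 8 libraries of the study, chosen by their labels: 2 long-tail and 2 total libraries of knockdown neurons. Of 23845 genes in the expression table, the 6642 with a mean of at least 20 TPM over these 4 libraries were tested. TPM is the share of a library's transcripts that a gene takes, corrected for gene length, and values were deposited as whole numbers. At the limit, Akap1 just passed with a mean of 20 TPM (19 and 16 TPM in long tails, 24 and 21 TPM in total RNA), and 2210018M11Rik just missed it with a mean of 19.75 TPM (19 and 9 TPM against 26 and 25 TPM).

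The neurons were primary cultures from mouse embryos at embryonic day 19. Lentivirus carrying a short hairpin RNA against CNOT7 was added at 13 to 15 days in vitro, and cells were harvested at 17 to 19 days in vitro. Control cultures, harvested at the same age, received lentivirus with a scrambled hairpin, and they too gave 2 total and 2 long-tail libraries. Binding to poly(U) agarose captured the polyadenylated RNA, and elution at 75 °C gave the total fraction. The long-tail fraction was eluted at the same temperature after a wash at 50 °C that, per the labels, takes off tails shorter than 50 nucleotides. The labels name no strain, no promoter for the hairpins and no second hairpin. Nor do they state that each library had a culture of its own, so p-values measure only the spread between these libraries, which may be technical.

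The poly(A) tail at the 3′ end of an mRNA binds poly(A)-binding protein and is shortened by deadenylases. CNOT7 is one of the catalytic deadenylase subunits of the CCR4-NOT complex, and loss of the tail usually precedes decapping and decay. In neurons, tail length is also changed at synapses by CPEB proteins and cytoplasmic poly(A) polymerases, where it is tied to local translation. Fractionation on poly(U) sorts RNA by how firmly its adenosines hold to the column, so a difference between the fractions compares shares of RNA and does not measure a tail length.

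The finding that passed the test concerned Bc1, a short non-coding RNA of neurons that is made by RNA polymerase III and carried into dendrites. It is shown in full because its own sequence, without any added tail, holds runs of adenosine. The transcript has 168 bases, at chr7:144914470-144914637 on the plus strand (GRCm38, GENCODE M21, a lincRNA that is its own single exon). Capitals mark the 3 runs of at least 5 A. Together they hold 37 bases, and the longest has 23.
Bc1: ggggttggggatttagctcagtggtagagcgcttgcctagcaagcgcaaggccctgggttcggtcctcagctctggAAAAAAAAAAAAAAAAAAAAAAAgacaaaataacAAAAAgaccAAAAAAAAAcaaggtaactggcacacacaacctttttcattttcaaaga

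Bc1 was at 87 and 66 TPM in the long-tail libraries 1 and 2 of knockdown neurons, and at 1236 and 840 TPM in the total libraries 1 and 2. Both long-tail libraries lay far below both total libraries. The mean difference was −3.60 on the log2(TPM + 1) scale (SE 0.25, limma adjusted p = 0.0228), which is 12.1-fold lower, with −3.33 in long-tail library 1 and −3.86 in long-tail library 2. Bc1 was the 1 gene called at an adjusted p under 0.05, 0.0151% of those tested, and no gene was called higher. In scrambled neurons the same RNA was at 134 and 82 TPM in long tails and at 1709 and 772 TPM in total RNA, a difference of −3.25. The knockdown difference minus the scrambled difference was −0.33 (SE 0.60), within its error. The call was lost in 7 of 18 other settings, among them without total library 1 (adjusted p = 0.695), without total library 2 (0.228) and with all 8 libraries in the fit (0.201). The log2 difference stayed between −4.43 and −3.32 in all 18. Bc1 shares its 5′ part with dispersed repeats and has a pseudogene, so the assignment of its reads is uncertain.

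**Figure D1:**
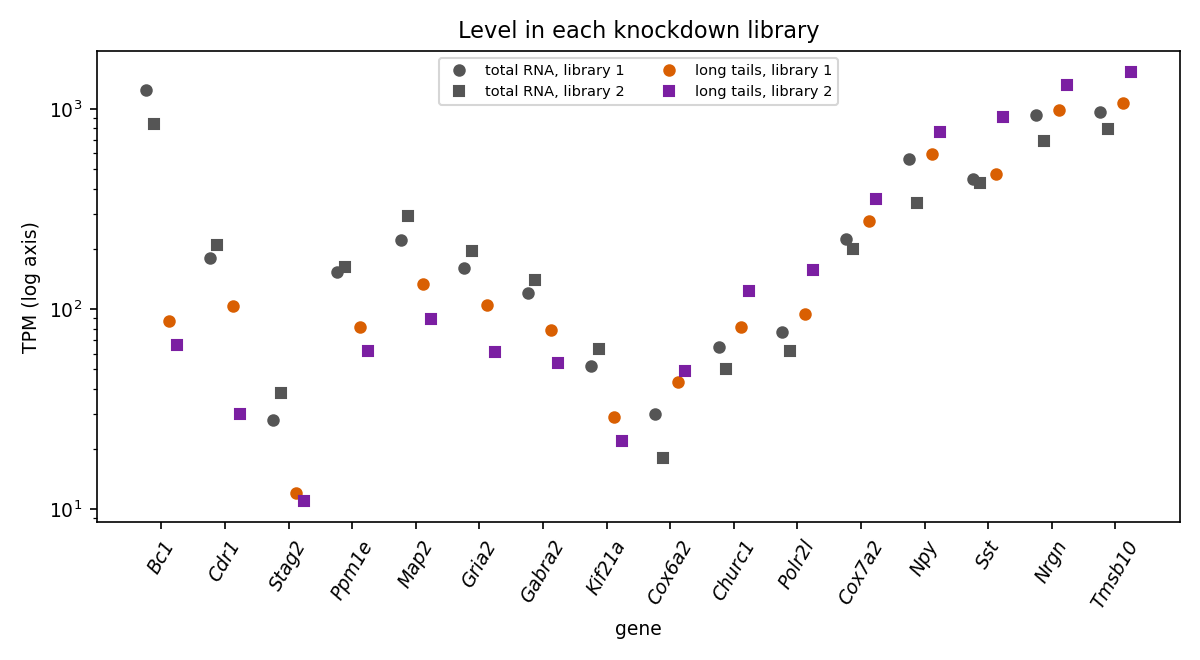
TPM on a log axis for 16 genes in the 4 knockdown libraries, with grey marks for total RNA, orange circles for long-tail library 1 and purple squares for long-tail library 2, and 1 mark a library. Bc1 is at 87 and 66 TPM in long tails and at 1236 and 840 TPM in total RNA, while for the other genes shown the fractions lie much closer together.

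The 2 long-tail libraries differed from each other, so each was also set apart against the total libraries. After subtraction of each library's median deviation, differences in long-tail library 1 were small for most genes, with quartiles of −0.20 and 0.16. The SD over genes of its log2 difference from the mean of the total libraries was 0.286. In it 14 genes lay beyond 1 on the log2 scale, 8 higher and 6 lower. Between total library 1 and total library 2 the SD was 0.291, with 53 genes beyond 1. These values are not directly comparable, since a mean of 2 libraries varies less than a single library. Long-tail library 2 spread more widely, with an SD of 0.620 and 672 genes beyond 1, of which 48 were higher and 624 lower. Across the 6642 genes, log2 levels in long-tail library 1 correlated more closely with total library 1 (Pearson r = 0.988) than with long-tail library 2 (r = 0.943).

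Set against the total libraries alone, long-tail library 1 gave 1 called gene, Bc1 (limma adjusted p = 1.2e-07), and long-tail library 2 gave 1431 (21.5% of those tested), 476 higher (7.17%) and 955 lower (14.4%). In these fits the spread comes from the total libraries, and the lone long-tail library is assumed to vary like them. The calls of long-tail library 2 fell to 166 once the trend with transcript length was removed, and to 0 without centring or with quantile normalization. With both long-tail libraries together, 349 genes higher (5.25%) and 468 lower (7.05%) had an unadjusted p under 0.05, and none but Bc1 kept an adjusted p under 0.05. A single gene with 2 libraries against 2 cannot go below p = 0.333 in an exact permutation test. After the subtraction of each library's median deviation (centring), both long-tail libraries lay above both total libraries for 1853 genes (27.9%) and below both for 1977 genes (29.8%). In scrambled neurons these numbers were 1714 (25.8%) and 1745 (26.3%).

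**Figure D2:**
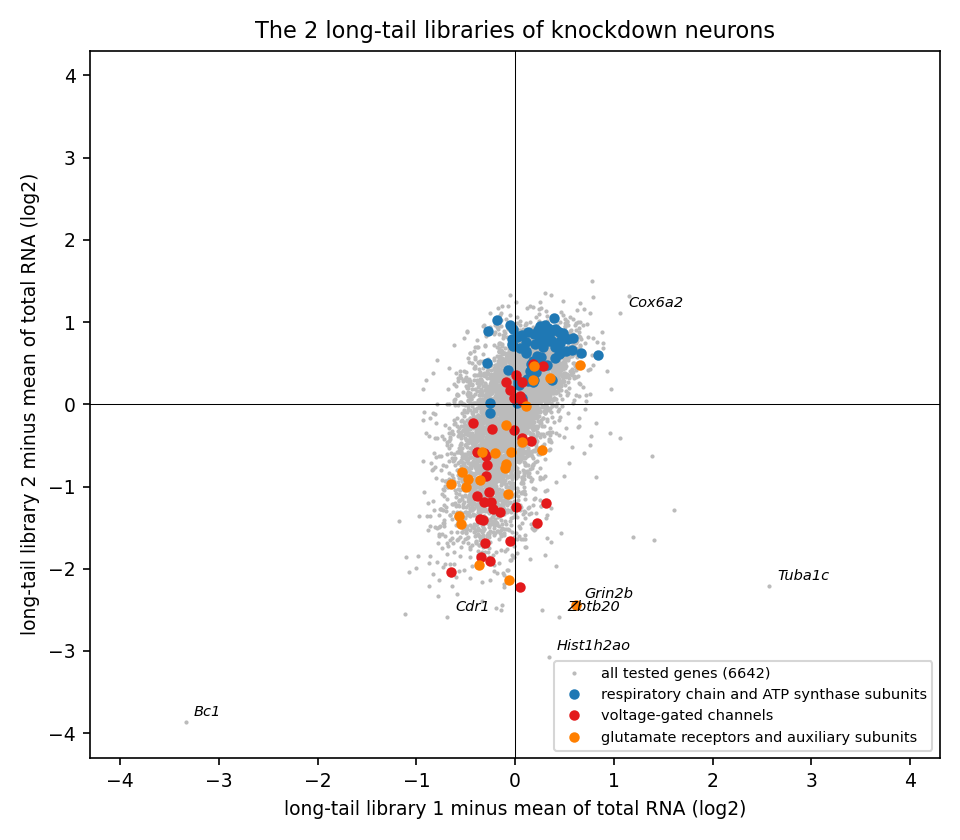
Log2 difference from the mean of the total libraries in long-tail library 1 (horizontal) and long-tail library 2 (vertical), 1 point a gene, with 3 gene lists in colour. Both axes share the total libraries, and the vertical spread (SD 0.620) exceeds the horizontal one (SD 0.286).

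Transcript length went with the difference in every long-tail library. Lengths are those of the longest annotated transcript (GENCODE M21) and were found for 6609 of the tested genes. In the shortest decile of genes (119 to 1160 nt), the median log2 difference was 0.26 in long-tail library 1 and 0.67 in long-tail library 2. In the longest decile (6402 to 123179 nt) it was −0.22 and −1.17. Both long-tail libraries lay above both total libraries for 73.4% of the shortest decile and 1.21% of the longest, and below both for 0.605% and 66.6%. Spearman's rho between length and the difference, across genes that share these libraries, was −0.570 for long-tail library 1 and −0.839 for long-tail library 2. It was −0.738 and −0.742 for the scrambled long-tail libraries, and −0.407 for total library 1 minus total library 2, so a length trend was also present between libraries of 1 fraction. For 6541 coding genes the coding part (−0.447 and −0.689 for libraries 1 and 2) and the 3′ untranslated part (−0.419 and −0.605) both followed it. For GC content the rho was 0.475 and 0.266 for libraries 1 and 2, 0.326 and −0.073 for the scrambled long-tail libraries, and 0.520 between the total libraries. The part of length and base content in the differences of single genes was not tested.

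**Figure D3:**
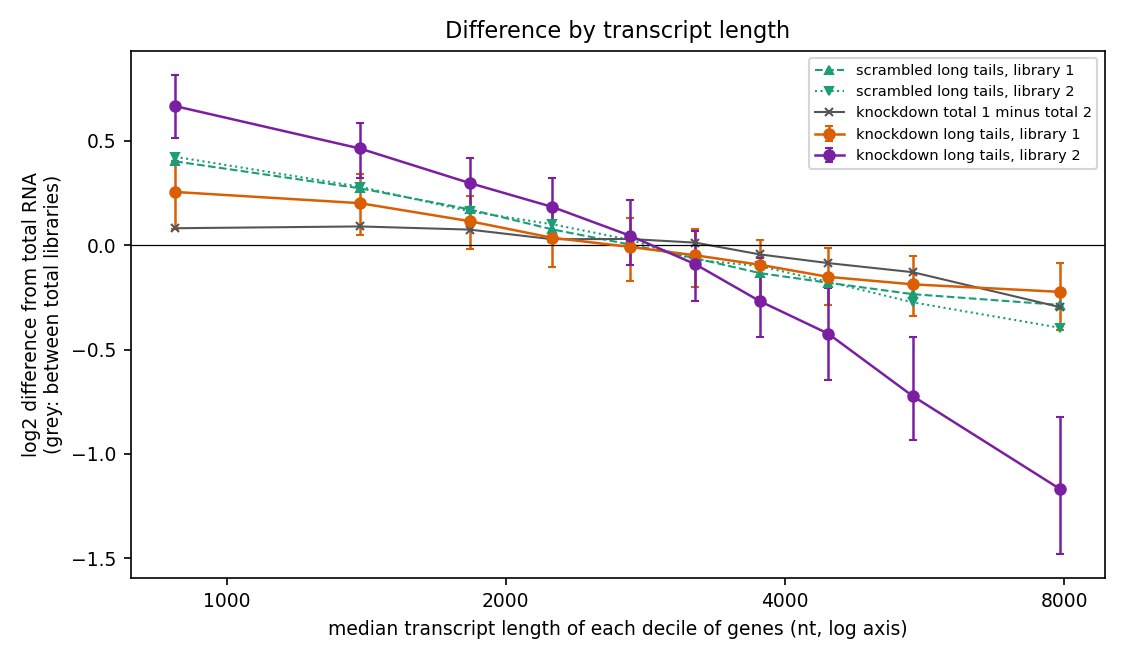
Median log2 difference for each decile of genes by transcript length (length on a log axis), with bars from the lower to the upper quartile of genes for the 2 knockdown long-tail libraries; scrambled long-tail libraries and the difference between the knockdown total libraries are shown as medians. All lines end lower at the longest decile than they start at the shortest, from 0.26 to −0.22 in long-tail library 1 and from 0.67 to −1.17 in long-tail library 2.

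A few genes lay against this trend. Among the shortest decile, 4 genes were below both total libraries in both long-tail libraries: Bc1, Arl10, 3300002P13Rik and Ubtd2. Apart from Bc1 their log2 differences were small, −0.24 for Arl10, −0.32 for 3300002P13Rik and −0.26 for Ubtd2. Among the longest decile, 8 genes were above. They included Timm17a, a subunit of the mitochondrial inner membrane import machinery (99 and 140 TPM in long tails, 98 and 100 TPM in total RNA), and Ppp2ca, the catalytic subunit of protein phosphatase 2A (495 and 619 TPM against 596 and 531 TPM). For both genes the raw levels of the fractions overlap, and their order rests on the subtraction of each library's median deviation. Lengths are those of the longest annotated transcript, and gene-level values do not show which transcript was expressed. These genes were picked after their values were seen.

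The genes with the smallest p among the higher ones had short transcripts. Cox6a2, a subunit of cytochrome c oxidase (chromosome 7, 128205435 to 128206387, minus strand), was at 43 and 49 TPM in long tails and at 30 and 18 TPM in total RNA. Its log2 difference was 1.08 (SE 0.24, limma adjusted p = 0.386). Churc1 (chromosome 12, 76765538 to 76783180, plus strand), a zinc-finger protein, was at 81 and 123 TPM against 65 and 50 TPM. Snhg3, a spliced non-coding host of small nucleolar RNAs (chromosome 4, 132348014 to 132353686, minus strand), was at 32 and 45 TPM against 24 and 19 TPM. For all these genes both long-tail libraries lay above both total libraries. Psmg4, a proteasome assembly chaperone, stood at 47 and 47 TPM against 32 and 26 TPM, and Tomm6, of the mitochondrial outer membrane translocase, at 292 and 383 TPM against 245 and 167 TPM. Polr2l, a small subunit shared by RNA polymerases, stood at 95 and 157 TPM against 77 and 62 TPM, and Atox1, a copper chaperone, at 334 and 446 TPM against 283 and 212 TPM. Banf1, which binds DNA at the nuclear envelope, had a log2 difference of 0.73 and Elof1, a transcription elongation factor, 0.70.

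The genes with the smallest p among the lower ones, after Bc1, had long transcripts. Stag2, a cohesin subunit (chromosome X, 42149317 to 42277185, plus strand), was at 12 and 11 TPM in long tails and at 28 and 38 TPM in total RNA, a log2 difference of −1.30 (SE 0.28, limma adjusted p = 0.386). Ppm1e, a phosphatase of calmodulin-dependent kinases (chromosome 11, 87226906 to 87359023, minus strand), was at 81 and 62 TPM against 154 and 162 TPM. Ranbp2, a nucleoporin and SUMO ligase, was at 15 and 8 TPM against 31 and 46 TPM. In each the fractions did not overlap, and long-tail library 2 was the lower of the 2 long-tail libraries. Top2b, a DNA topoisomerase, was at 37 and 32 TPM against 68 and 87 TPM, Ogt, the enzyme that adds O-GlcNAc, at 33 and 24 TPM against 60 and 59 TPM, and Zranb1, a deubiquitinase, at 14 and 11 TPM against 30 and 29 TPM. Cstf2, which binds pre-mRNA downstream of the cleavage site at 3′ end formation, was at 21 and 24 TPM against 41 and 48 TPM. Its log2 difference was about the same in libraries 1 and 2 (−0.84 and −0.79).

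After centring, most respiratory chain and ribosomal protein genes lay higher in long tails on average, while glycolysis enzymes and translation factors lay on both sides. In uncentred TPM the tested respiratory chain genes summed to 29079 and 43741 in long-tail libraries 1 and 2, against 30602 and 25450 in total RNA. Long-tail library 1 thus lay between the total libraries. Of 77 tested respiratory chain and ATP synthase subunits encoded in the nucleus, 60 lay above both total libraries in both long-tail libraries and 1, Ndufs1, below, against 27.9% and 29.8% of all genes. Their median log2 difference was 0.24 in long-tail library 1 and 0.73 in long-tail library 2, where the median of all genes was −0.02 and 0.01. Set against total RNA, 47 of the 77 were called higher in long-tail library 2, where 7.17% of all genes were, and none in library 1. No call of library 2, in this or any other list, held without centring or with quantile normalization. Cox7a2 was at 276 and 353 TPM in long tails and at 224 and 200 TPM in total RNA. Atp5g3, of the membrane ring of ATP synthase, was at 593 and 845 TPM against 538 and 437 TPM, and Ndufa11, of complex I, at 77 and 106 TPM against 71 and 55 TPM. With each library's length trend removed, the median of the list was 0.03 in library 1 and 0.05 in library 2. Of 36 glycolysis and TCA cycle enzymes, 14 lay above both total libraries and 5 (Pdha1, Dlat, Pfkp, Cs and Hk1) below, and the sign of their median (0.15) turned with quantile normalization (−0.02).

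Mitochondrial ribosomal proteins had a median of 0.24 in library 1 and 0.58 in library 2, and 53 of 71 lay above both total libraries. None lay below. With the length trend removed the medians were 0.07 and 0.07. Mrpl34 was at 97 and 120 TPM against 86 and 62 TPM, and Mrpl52 at 196 and 326 TPM against 170 and 151 TPM. The cytosolic ribosomal proteins, whose mRNAs are abundant and short, had medians of 0.08 and 0.60. Of 82, all had a positive mean difference, 46 lay above both total libraries (27.9% of all genes did), and 36 were called higher in long-tail library 2 (7.17% of all genes). Rplp2 was at 647 and 901 TPM against 566 and 524 TPM, and Rps16 at 899 and 1283 TPM against 834 and 704 TPM. The positive median of library 1 turned to −0.12 without centring. The 82 genes summed to 49369 TPM in long-tail library 1, below total libraries 1 and 2 (56837 and 49589 TPM), and to 77599 TPM in long-tail library 2. With each library's length trend removed, the medians of the cytosolic ribosomal proteins were −0.17 in library 1 and −0.05 in library 2. Proteasome subunits had medians of 0.06 (−0.14 without centring) and 0.44, and 16 of 32 lay above both total libraries, while Psmd1 and Psmd11 lay below. With the length trend removed the proteasome medians were −0.05 and −0.02. Among 51 translation factors, 14 lay above and 17 below, close to the shares of all genes. Eif1, which guards start codon choice, was at 481 and 692 TPM against 455 and 368 TPM, while Eif3a, the largest subunit of its complex, was at 50 and 57 TPM against 89 and 117 TPM.

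Neuropeptides and granins also lay higher in long tails after centring. Of 15 tested, 10 lay above both total libraries and none below, against 27.9% and 29.8% of all genes. The median was 0.23 in library 1 and 0.59 in library 2. In uncentred TPM the tested members summed to 6076 and 8428 in long tails and to 6791 and 5841 in total RNA. With the length trend removed the medians were 0.02 and 0.27. Npy was at 598 and 770 TPM against 563 and 339 TPM. Sst, the somatostatin precursor, was at 472 and 915 TPM against 446 and 428 TPM, so its difference came mostly from library 2 (0.31 and 1.13). Pcsk1n, an inhibitor of prohormone convertase 1, was at 579 and 602 TPM against 450 and 310 TPM, with like differences in both libraries (0.83 and 0.75).

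Genes for neuronal transmission had the opposite pattern. Over all genes 29.8% lay below both total libraries and 27.9% above. Of 36 voltage-gated channels 17 lay below both total libraries and 3 above (among them the auxiliary subunits Kcnip2 and Kcnmb4), with medians of −0.19 in library 1 and −0.81 in library 2. Kcnq3, a Kv7 potassium channel subunit, was at 18 and 7 TPM in long tails and at 24 and 46 TPM in total RNA. Glutamate receptors and their auxiliary subunits had medians of −0.09 and −0.75, and 13 of 24 lay below. Cnih2, Cacng3 and Olfm1, all auxiliary or partner proteins of AMPA receptors, lay above. The AMPA receptor subunit Gria2 was at 105 and 61 TPM against 160 and 195 TPM, and Gria3 at 30 and 23 TPM against 45 and 54 TPM. Among 12 GABA receptor and gephyrin genes 10 lay below and none above, with medians of −0.26 and −0.73. Gabra2 was at 79 and 54 TPM against 121 and 140 TPM. Library 2 gave most of the size of these differences. With each library's length trend removed the medians were −0.02 and −0.02 for the channels, 0.07 and −0.11 for the glutamate receptors and −0.08 and −0.25 for the GABA receptor list.

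At the postsynapse, members lay on both sides. Of 39 genes of the scaffold or with mRNAs known from dendrites, 16 lay below both total libraries and 4 (Psd, Nrgn, Camk2n2 and Calm3) above. The shares of all genes were 29.8% below and 27.9% above. The medians were −0.05 in library 1 and −0.46 in library 2, and 0.14 and 0.07 with the length trend removed. Psd3, a nucleotide exchange factor at synapses, was at 47 and 27 TPM against 79 and 111 TPM, and Homer1, a scaffold protein, at 20 and 12 TPM against 30 and 41 TPM. Nrgn, a small calmodulin-binding protein whose mRNA is found in dendrites, was higher in long tails, at 988 and 1323 TPM against 927 and 690 TPM. Camk2n2, an inhibitor of CaMKII, was at 167 and 181 TPM against 149 and 102 TPM. Of 53 synaptic vesicle and release genes, 25 lay below and 8 above, with medians of −0.08 and −0.33, and of 0.05 and −0.03 with the length trend removed. Erc2, of the active zone, was among the lower ones (49 and 27 TPM against 80 and 84 TPM).

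Transport genes were among the lower ones. They are set beside all genes, of which 29.8% lay below both total libraries and 27.9% above. Of 17 kinesins 13 lay below both total libraries and 2, Kifc2 and the light chain Klc2, above, with medians of −0.24 in library 1 and −0.72 in library 2, and of −0.07 and −0.0020 with the length trend removed. Kif21a was at 29 and 22 TPM against 52 and 63 TPM, and Kif5c, a conventional kinesin of neurons, at 160 and 105 TPM against 231 and 252 TPM. Among 35 proteins of RNA transport granules, 17 lay below and none above. Their medians were −0.19 and −0.47, and −0.09 and −0.04 with the length trend removed. The helicase Ddx3x was at 69 and 64 TPM against 114 and 146 TPM, and the RNA-binding protein Celf2 at 121 and 55 TPM against 191 and 167 TPM. Of 40 tubulins, neurofilaments and microtubule-associated proteins, 16 (40%) lay above both total libraries and 9 (22.5%) below, and the sign of their median (0.08) turned without centring. Map2, the microtubule protein of dendrites (chromosome 1, 66175273 to 66442583, plus strand), was at 134 and 89 TPM against 221 and 293 TPM, and Map1a at 131 and 72 TPM against 182 and 191 TPM. Stmn3, of the stathmin family and on the same list, was at 1254 and 1621 TPM against 1135 and 823 TPM. Among 31 actins and actin regulators 15 lay above and 3 (Capza1, Add1 and Add2) below, and the sign of their median (0.13) turned without centring. Tmsb10, which binds actin monomers, was at 1070 and 1525 TPM against 961 and 793 TPM, and Pfn1, profilin, at 1062 and 1193 TPM against 952 and 685 TPM.

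**Figure D4:**
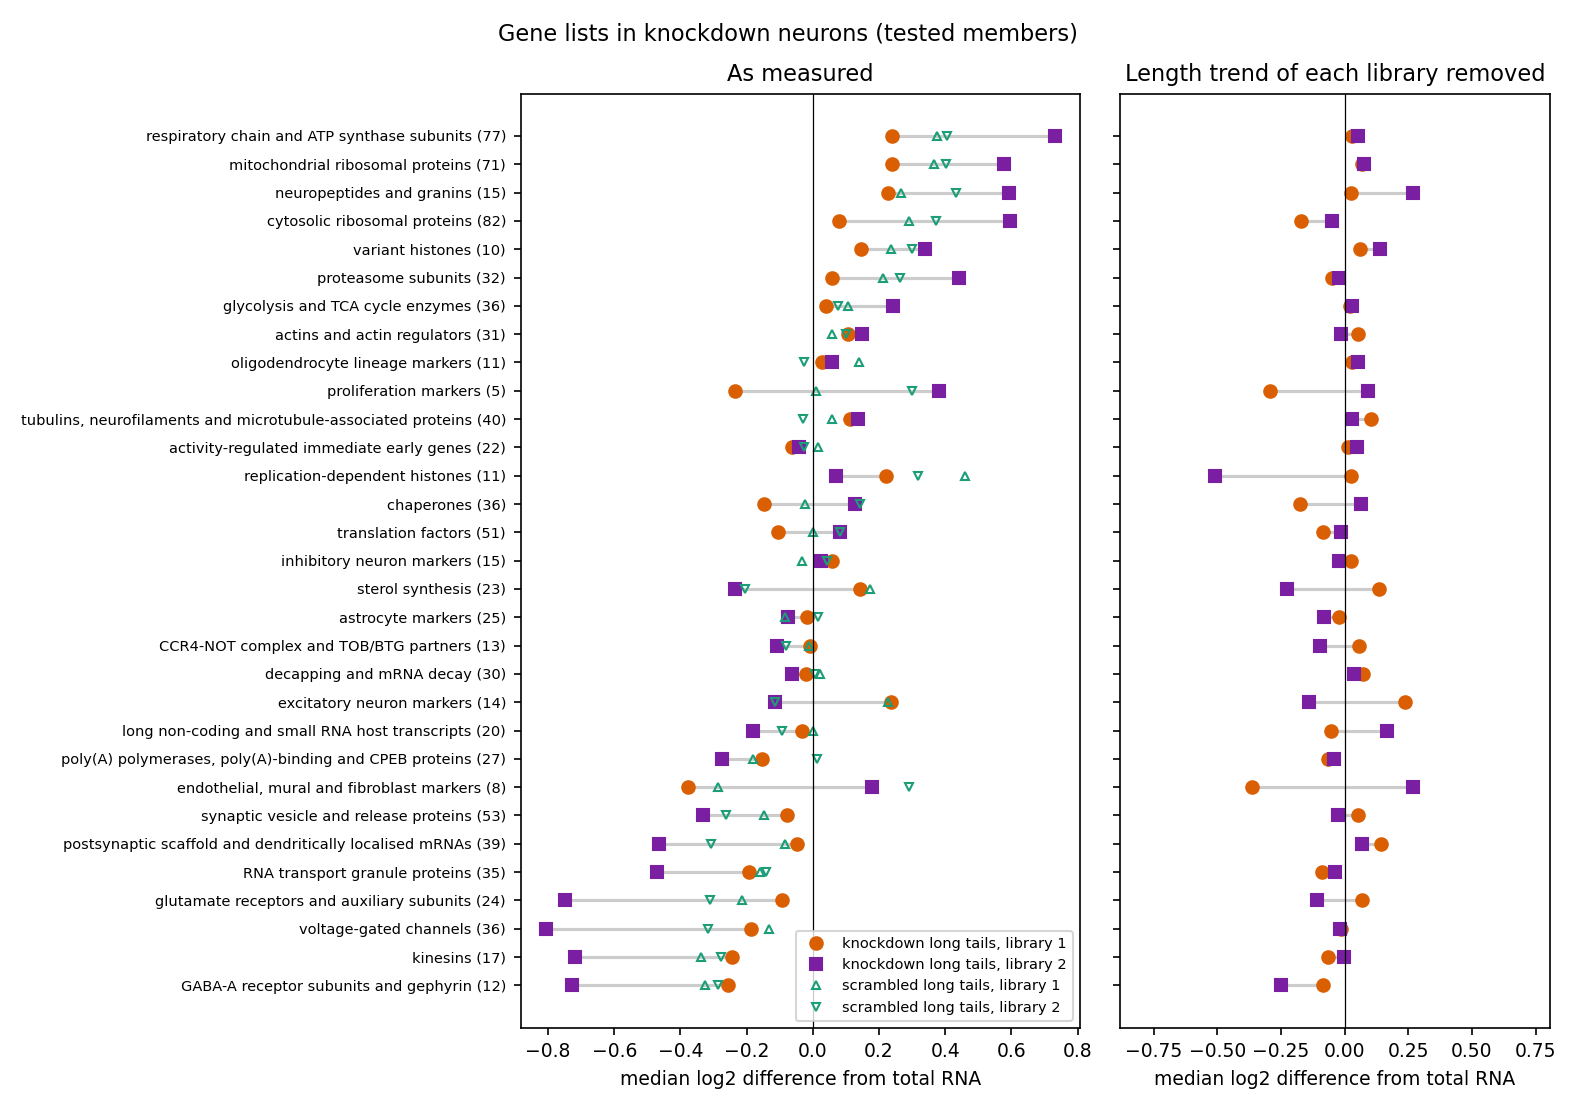
Median log2 difference from total RNA for each gene list with at least 5 tested members (number in brackets): orange circles and purple squares are knockdown long-tail libraries 1 and 2, joined by a line, and open triangles the scrambled ones. As measured, medians of library 2 run from −0.81 for voltage-gated channels to 0.73 for respiratory chain subunits; with the length trend removed (right) these were −0.02 and 0.05.

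Genes for proteins that set tail length were on both sides. Of 13 genes tested for CCR4-NOT subunits or for the TOB and BTG proteins that bind them, Cnot1, Cnot2 and Tnks1bp1 lay below both total libraries and Cnot11 above. These shares were 23.1% and 7.69%, against 29.8% and 27.9% of all genes. The sign of this list's median (−0.09) turned with quantile normalization. The scaffold Cnot1 was at 31 and 15 TPM against 43 and 47 TPM. Among 27 genes for poly(A) polymerases, proteins that bind poly(A) and CPEB proteins, 13 lay below, and Pabpn1 and Paip2 above, with medians of −0.15 in library 1 and −0.27 in library 2. With the length trend removed these were −0.06 and −0.04, and with quantile normalization the median of the mean difference went from −0.17 to −0.02. Cpeb2 was at 16 and 8 TPM against 25 and 31 TPM, Cpeb4 at 22 and 12 TPM against 30 and 50 TPM, and Papola, the nuclear poly(A) polymerase, at 51 and 43 TPM against 78 and 75 TPM.

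Replication-dependent histone mRNAs usually end just after a stem-loop and carry no poly(A) tail, so they are given apart. The loop with its flanks is shown for 4 of the 11 tested, from the GENCODE M21 transcripts, with the motif GGCTCTTNTNAGAGCC in capitals. The motif is the 6-base stem and 4-base loop that most of these histones share, with N where the loop varied. It was found, on the transcript strand alone, in 33 of 65 such histones with a transcript. Since the motif was derived from these histones, that count is no independent evidence. Over 55341 genes, histones included, 0.0705% held it in their longest annotated transcript, coding where there was one. The shares are not directly comparable, since for the histones all transcripts of the basic annotation were searched.
Hist3h2ba: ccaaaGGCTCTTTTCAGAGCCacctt
Hist3h2a: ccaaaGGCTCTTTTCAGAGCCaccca
Hist1h1c: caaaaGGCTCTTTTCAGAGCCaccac
Hist1h2ao: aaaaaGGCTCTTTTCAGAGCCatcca

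The annotated transcripts run on past the motif for 169 bases in Hist3h2ba, 1643 in Hist3h2a, 840 in Hist1h1c and 31 in Hist1h2ao. These 4 share the motif and were not alike in level. Hist3h2ba was at 79 and 106 TPM in long tails and at 67 and 52 TPM in total RNA, a log2 difference of 0.76 (SE 0.19, limma adjusted p = 0.386), and Hist3h2a at 102 and 121 TPM against 99 and 102 TPM. Hist1h1c, a linker histone, was at 120 and 112 TPM against 128 and 127 TPM. Hist1h2ao was at 28 and 2 TPM against 32 and 20 TPM, and after centring its difference was 0.34 in library 1 and −3.07 in library 2. Over the 11 the median was 0.22 in library 1 and 0.07 in library 2 (−0.05 with quantile normalization). These 11 are the members of 61 with an entry that passed the filter, and the list's direction depended on it. The median of the mean difference was 0.01 at 20 TPM, −0.89 with a mean of at least 5 TPM and −0.89 with no filter. Besides Hist3h2ba and Hist3h2a, Hist1h4i, Hist1h2bc and Hist1h4h lay above both total libraries, and none lay below. The last 3 named hold no such motif. Those above made up 45.5% of the 11 tested, where 27.9% of all genes lay above and 29.8% below. The median of the mean difference was 0.48 over the 4 tested histones without the motif and −0.0035 over the 7 with it. Their ranges overlapped, from −1.32 to 0.56 without it and from −1.36 to 0.76 with it. The difference between these was not tested. Only this exact motif was counted, so its absence does not show that a stem-loop is absent. Histone genes resemble each other closely, which makes the split of reads between them uncertain. Variant histones, whose mRNAs are polyadenylated, had medians of 0.14 (−0.06 without centring) and 0.34, and 0.06 and 0.14 with the length trend removed, and 7 of 10 lay above.

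Among 20 long non-coding and host transcripts, 6 lay above both total libraries and 5 below, close to the shares of all genes (27.9% and 29.8%). The higher ones were Snhg1, Snhg3, Snhg5, Snhg6, Snhg12 and Pantr1. The lower ones were Bc1, Xist, Rian, Snhg11 and Cdr1, a neuronal transcript whose locus also gives a circular RNA (chromosome X, 61184005 to 61185558, minus strand). Cdr1 was at 104 and 30 TPM in long tails and at 179 and 210 TPM in total RNA, a log2 difference of −0.69 in library 1 and −2.59 in library 2. In scrambled neurons Cdr1 was at 87 and 47 TPM in long tails and at 263 and 218 TPM in total RNA, so all 4 long-tail libraries lay below all 4 total libraries. Reads of the linear and circular forms cannot be told apart in this table. Xist, the nuclear RNA that coats the inactive X chromosome, was at 27 and 16 TPM against 40 and 98 TPM.

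For some genes the 2 long-tail libraries disagreed. Grin2b, an NMDA receptor subunit, was at 67 TPM in long-tail library 1 and 8 TPM in library 2, against 39 and 64 TPM in total RNA. The transcription factor Zbtb20 was at 118 and 15 TPM against 90 and 110 TPM. For both genes library 1 was just above the range of total RNA and library 2 far below it. In the other direction, Cox17, a copper chaperone of cytochrome c oxidase, was at 69 and 193 TPM against 85 and 94 TPM. None of these 3 differences was called with both libraries in the fit (limma adjusted p from 0.505 for Zbtb20 to 0.582 for Grin2b).

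Knockdown neurons were then compared with scrambled neurons for the difference between fractions. No gene was called for that interaction by limma over all 8 libraries (0 of 6642, 0 also at an unadjusted p under 0.05, smallest adjusted p 0.999). The median SE of the interaction was 0.252, above its SD over genes (0.217), so this fit could hardly call a gene. The 0 calls therefore do not show that the difference between fractions was alike in knockdown and scrambled neurons. In the same fit no gene was called for long tails minus total in knockdown neurons (1540 at an unadjusted p under 0.05) or in scrambled neurons (461 at an unadjusted p under 0.05). The mean differences of knockdown and scrambled neurons, which share no library, correlated across the 6642 genes (Pearson r = 0.869). By library, long-tail library 1 of knockdown neurons correlated at r = 0.837 with scrambled library 1 and 0.326 with scrambled library 2. For knockdown library 2 these were 0.693 and 0.810. For Stag2 the difference was −1.30 in knockdown and −0.64 in scrambled neurons, for Map2 −1.08 and −0.46, and for Cox6a2 1.08 and 0.60. These genes were picked by a small p in the knockdown libraries, a choice that by itself favours larger differences there than in scrambled neurons. The interaction was −0.65 (SE 0.42) for Stag2, −0.61 (SE 0.40) for Map2 and 0.49 (SE 0.45) for Cox6a2, none past the threshold. The voltage-gated channels had a median of −0.50 in knockdown and −0.26 in scrambled neurons, and the respiratory chain list 0.48 and 0.40. Taken apart, the channel medians were −0.19 and −0.81 in knockdown libraries 1 and 2, and −0.13 and −0.32 in the scrambled ones. Those of the respiratory chain were 0.24 and 0.73 in knockdown and 0.37 and 0.41 in scrambled neurons. In knockdown library 1 the channel median thus lay between the scrambled ones, and the respiratory chain median below both. Only library 2 had larger differences than both scrambled libraries.

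The targeted gene lay below the level filter. Cnot7 was at 9 and 11 TPM in long tails and 12 and 16 TPM in total RNA of knockdown neurons, and at 28 and 31 TPM and 42 and 36 TPM in scrambled neurons, with no overlap between treatments. The cultures held neurons and glia: Map2, Slc17a7 (811 to 1293 TPM in the knockdown libraries) and Gad1 (150 to 211 TPM) were present beside Gfap (1488 to 3078 TPM) and Mbp (155 to 227 TPM). Of 20 microglia markers 6 were listed at 0 in every knockdown library. Among these, Aif1, Cx3cr1 and Tmem119 were at 0 in all 8 libraries. The microglia list summed to 45 and 44 TPM in long tails and 47 and 40 TPM in total RNA. Of 25 endothelial, mural and fibroblast markers 5 were listed at 0 in every knockdown library, among them Cldn5 and Pecam1. That list summed to 498 and 976 TPM against 599 and 857 TPM, so it was higher in both libraries numbered 2. Markers of astrocytes summed to 23199 and 29490 TPM in long tails and 26663 and 22670 TPM in total RNA, with no shift that separated the fractions (Ndrg2, Cst3 and Id3 of 25 above both total libraries; Aldh1l1, Fgfr3, Slc1a3, Aqp4 and Slc1a2 below). Within the list, Aqp4 was at 235 and 133 TPM against 327 and 364 TPM, and Slc1a2, the glial glutamate transporter, at 313 and 89 TPM against 384 and 376 TPM. In such bulk samples fewer cells of a type and less RNA per cell cannot be told apart. The ribosomal precursor Rn45s took 18.6% and 2.90% of TPM in long-tail libraries 1 and 2 and 6.07% and 14.3% in total libraries 1 and 2. Its share thus differed most between the long-tail libraries. Counts of calls with Rn45s left out are given below, in a setting that also drops the centring. The part of Rn45s alone in the results was not tested.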

How the data were processed

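RNA was measured by sequencing in 8 libraries, 2 in each of 4 groups. The submitters' processing notes name RSEM, TopHat2, CASAVA, DESeq2 and DESeq, and the mm10 build; their roles and versions, not given in the sources used here, stay unknown. Each deposited value is a score of relative abundance, TPM, that the authors rounded to whole numbers, as its sums of 999689 to 999809 per library show. Read depth is unknown, so no counting intervals were made.

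Values were taken as log2(TPM + 1), a scale that understates changes of low genes, and each library's median deviation from the gene means was subtracted. The filter was a mean of at least 20 TPM. Differences were tested two-sided with limma 3.58.1 (R 4.3.3; lmFit, eBayes with a mean-variance trend), first on the 4 knockdown libraries, then with each long-tail library alone, and on all 8 libraries for the interaction, with Benjamini-Hochberg adjustment over all 6642 genes and a threshold of 0.05. The scripts were tested on simulated data. Gene structures came from GENCODE M21, matched by symbol. Length trends were removed as a lowess curve (span 0.4) of each library's difference. The 32 gene lists hold 1213 genes, of which 1199 had an entry and 910 were tested. Names of 27 genes stood as dates and could not be matched (17 tested). The authors' tables of comparisons were not used.

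The rule for named genes took Cnot7, up to 12 genes per direction with the smallest p, up to 4 per list, up to 8 per direction with the largest gap between fractions, up to 8 per direction by the difference between long-tail libraries and up to 6 per direction by the interaction. Some of these are not reported here. Members and lists were chosen with earlier results of these data known. Alternatives changed the pseudocount, filter, scaling, variance model, length, pairing and the libraries used.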

Additional observations from a re-analysis of the deposited data

Results flagged for a closer look

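For 1 gene list, taken library by library, both knockdown medians had one sign and both scrambled medians the other. For 30 decapping and mRNA decay genes the median log2 difference between long tails and total RNA was −0.02 and −0.06 in the knockdown libraries 1 and 2, and 0.02 and 0.01 in the scrambled ones. Over all tested genes these medians were −0.02 and 0.01 in knockdown and −0.01 and 0.003 in scrambled neurons, so the list's values lay close to them. The median of the members' interaction was −0.057, against −0.036 over all tested genes. The difference between the lists' medians was not tested, and none of the members was called. The sign of the knockdown median (−0.10 for the mean of the libraries) turned with quantile normalization (0.03).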

How the results depend on the processing

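The count of 1 gene in the knockdown comparison was 0 with no filter on low values, with a mean of at least 50 TPM, with Rn45s left out and TPM rescaled without centring, with all 8 libraries, and with the length trend removed. It was 446 without centring (4 higher and 442 lower). Leaving out 1 library gave 0 to 1431 calls, the upper value without long-tail library 1 and 0 without total library 1 or without total library 2. The cause of these changes was not tested. Without centring the median of all genes was −0.15, with Rn45s left out and no centring −0.13 and with quantile normalization 0.03, and the share of genes higher in long tails was 35.6%, 36.7% and 53.0% against 48.6%.

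Long-tail library 1 alone, with 1 call, gave 11 with a pseudocount of 5, 63 with no filter, 52 with at least 5 TPM, 89 with Rn45s left out and TPM rescaled without centring, 34 with robust eBayes, and 0 without centring alone, with quantile normalization or with the scrambled libraries in the fit. Long-tail library 2 alone, with 1431, gave 3618, 3765 and 655 with no filter, at least 5 TPM and at least 50 TPM, 2484 with Rn45s left out and TPM rescaled without centring, 166 with the length trend removed, and 0 without centring alone or with quantile normalization. The interaction stayed at 0 calls in every alternative run.

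Labels give no meaning to the replicate numbers, and same-numbered knockdown libraries correlated at r = −0.114 in their deviations, while the other 5 pairs of groups correlated at 0.252 to 0.757, so the numbers went with shared deviations in those pairs. With the replicate block the count stayed at 1 (Bc1 adjusted p = 1.8e-07), with the block and length trend removed it was 1 (0.0403), and with crossed pairing it was also 1.

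Signs of 6 named genes turned. When 1 library was left out, the log2 difference ranged from −2.59 to 0.46 for Zbtb20, from −2.44 to 0.63 for Grin2b, from −3.07 to 0.35 for Hist1h2ao and from −0.15 to 1.17 for Cox17, in each case with long-tail library 1 left out at one end and long-tail library 2 at the other. For Tuba1c it ranged from −2.27 without total library 2 to 2.64 without total library 1, and was −2.21 without long-tail library 1. With the length trend removed Map1a was at 0.14, Zbtb20 at 0.35 and Grin2b at 0.44.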

Other observations

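Tuba1c, an alpha-tubulin, went with the replicate number and not with fraction or hairpin. It was at 149 TPM in long-tail library 1 and 5 TPM in long-tail library 2 of knockdown neurons, and at 167 and 4 TPM in the total libraries. In scrambled neurons it was at 150 and 6 TPM in long tails and at 191 and 4 TPM in total RNA. Alpha-tubulin genes are nearly identical, so the split of reads between them is uncertain.

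The calls of long-tail library 2 lay at the ends of the length range. Of 472 higher calls with a length, 315 were in the shortest decile of genes, and the median length was 959 nt. Of 953 lower calls, 499 were in the longest decile, and the median length was 6481 nt. Among lists with at least 5 tested members, the 3 with the largest share of members above both total libraries (respiratory chain subunits, mitochondrial ribosomal proteins and variant histones) had median lengths of 918, 1219 and 1938.5 nt, against 2961 nt over all tested genes.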
